A study of Mus musculus with 60 samples.

Results

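The 38 genes described here encode proteins that detect and repair broken or damaged DNA. They were chosen by name from repair pathways among the 38204 genes of the expression table. No rule on their measured values was used, but earlier results of these data were known when they were chosen. They cover damage kinases, chromatin signalling at breaks, end sensing and resection, non-homologous end joining, homologous recombination, and base excision with single-strand break repair. A gene's level was the sum of the RPKM values (read numbers corrected for the length of a transcript and for sequencing depth) of all its transcripts.

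Ionizing particles leave double-strand breaks, single-strand breaks and oxidized bases in DNA. Ends of a double-strand break are either joined directly, by the Ku heterodimer and DNA ligase IV, or cut back by nucleases and repaired from a sister copy, and 53BP1 with its partners Rif1 and shieldin holds back that cutting. Single-strand breaks and damaged bases are cleared through glycosylases, the Ape1 endonuclease, DNA polymerase beta and Parp1. Most adult hepatocytes do not divide, and homologous recombination is used mainly after DNA replication.

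Liver RNA was sequenced from 60 male mice of the C3H/HeNCrl strain, which is inbred and prone to liver tumours, after removal of ribosomal RNA. Mice aged 8 to 10 weeks received total-body 56Fe, 16O or 28Si ions at 0.2 Gy, or were not irradiated, and livers were taken at 1, 2, 4, 9 and 12 months, which gave 20 groups of 3 mice. The study asked how the liver transcriptome responds to each ion over time. Because the tissue was bulk liver, fewer cells of a type and less RNA per cell cannot be told apart. Each p-value of a comparison rests on the spread between mice within groups of 3. That spread was pooled over the groups of a fit and moderated across genes.

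Depth was 11412665 to 40568208 mapped read pairs a library, with a median of 18891345. Libraries of 1 and 2 months stood apart from the later ones. A median of 52.9% and 56.9% of mapped pairs fell in annotated transcripts at 1 and 2 months, against 81.8%, 83.9% and 78.1% at 4, 9 and 12 months, and retained-intron transcripts took a median of 5.20% and 4.26% of the reads of protein-coding genes, against 1.54%, 1.51% and 1.99%. One library, 28Si at 4 months replicate 2, lay at 56.0% in transcripts, and no comparison of an ion with control or with another ion at 4 months had a member called with or without it. All 8 hepatocyte markers were above 0 in every library, Alb at 10209 to 35549 RPKM.

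**Figure D1:**
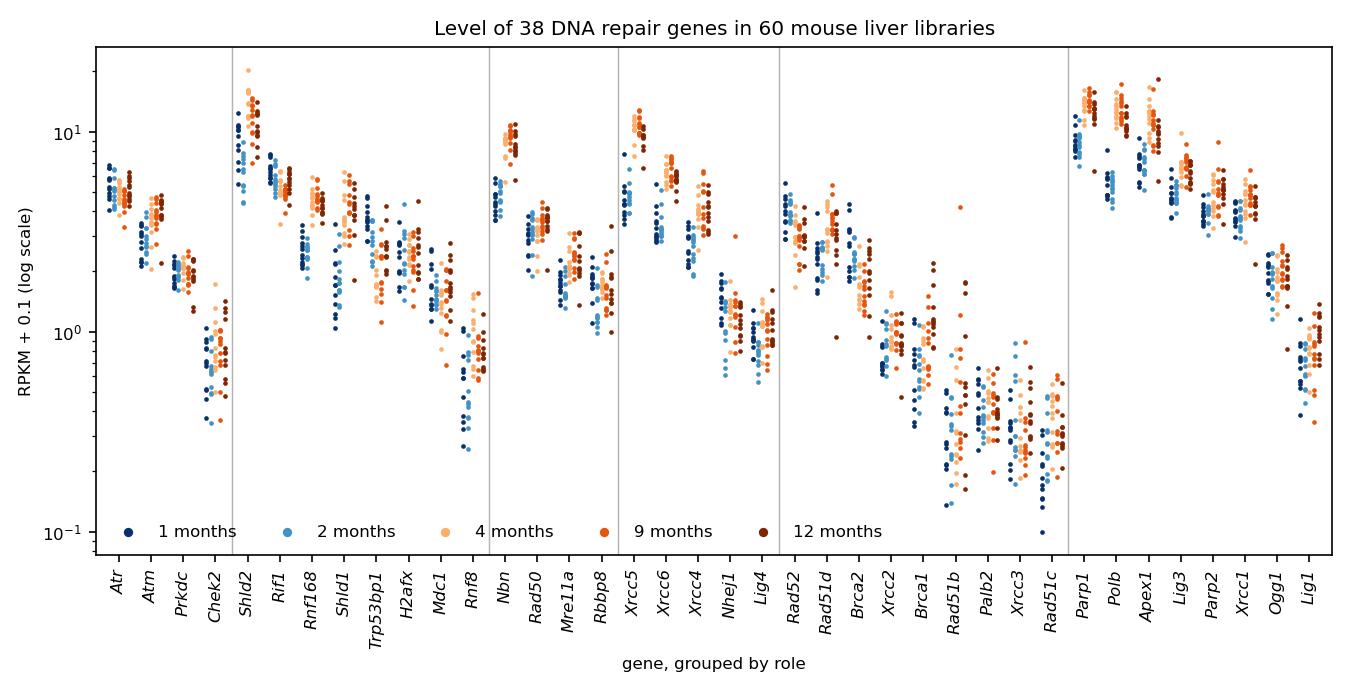
Level of each of the 38 repair genes in the 60 libraries (RPKM plus 0.1 on a log axis), with genes grouped by role along the horizontal axis and points coloured by time. The levels run from Parp1 with a mean of 11.5 RPKM to Rad51c with 0.213 RPKM, and most genes sit between 1 and 5 RPKM.

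The repair genes were expressed at low to moderate levels. Of the 38, 8 had a mean of 5 RPKM or more, 20 lay between 1 and 5 RPKM and 10 lay below 1 RPKM, and 27 lay below the median of all genes tested, 4.36 RPKM. Parp1, the nick sensor that builds poly(ADP-ribose), led the base repair genes and the whole set, with a lowest, median and highest library of 6.24, 11.9 and 16.5 RPKM. Lig1, the ligase that seals replication fragments, was the lowest base repair gene, with 0.251, 0.672 and 1.28 RPKM. Shld2, a shieldin subunit, was the highest of the chromatin signalling genes, with 4.28, 10.3 and 20.2 RPKM, and Rnf8, the ubiquitin ligase that reads phosphorylated Mdc1, was the lowest, with 0.158, 0.639 and 1.47 RPKM. The base repair and chromatin signalling genes thus each held both some of the most and some of the least abundant members.

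Among the end-joining genes, Xrcc5, which encodes Ku80, was highest, with 3.34, 9.21 and 12.7 RPKM. Lig4, the ligase of that pathway, was lowest, with 0.458, 0.820 and 1.52 RPKM. Nbn, the Nbs1 subunit of the Mre11 complex, led the resection genes with 3.52, 7.65 and 10.9 RPKM, above Rbbp8, the CtIP resection factor, with 0.880, 1.56 and 3.27 RPKM. Among the kinases Atr, which responds to single-stranded DNA, was highest at 3.22, 4.91 and 6.71 RPKM. In protein-coding transcripts alone Atm was above Atr, with means of 2.30 against 1.62 RPKM at 1 and 2 months and 3.49 against 3.24 RPKM at 9 and 12 months. Chek2, a checkpoint kinase downstream of Atm, was lowest at 0.248, 0.654 and 1.63 RPKM.

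Homologous recombination genes were the scarcest group. Rad52, a strand-annealing protein, was the highest of them, with 1.57, 3.29 and 5.43 RPKM, and Rad51c was the lowest, with a median of 0.191 and a highest library of 0.507 RPKM. In protein-coding transcripts alone Rad51d was above Rad52, with means of 1.28 against 1.15 RPKM at 1 and 2 months and 1.39 against 1.26 RPKM at 9 and 12 months. Rad51c was listed at 0 in 1 library and had too few values of 0.5 RPKM or more to be tested across all 60 libraries, so 37 of 38 members entered that fit. The SD between mice of a group, on the log2 scale, ran from 0.137 for Nbn to 0.961 for Rad51b, with a median of 0.281 over the members and 0.244 over all genes tested. Rad51b had a median of 0.241 RPKM and a highest library of 4.12 RPKM.

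Of the 38 genes, 14 start within 500 bp of a protein-coding gene that runs the other way. The share over all genes was not computed, so this count cannot be read as a trait of repair genes. Shld2 starts 234 bp from Glud1, the mitochondrial glutamate dehydrogenase, whose mean was 269.6 RPKM. Brca1 starts 194 bp from Nbr1, an autophagy receptor with a mean of 59.96 RPKM against 0.749 RPKM for Brca1. The strand setting of the read counting is not given in the sources used here, so overlapping genes on opposite strands cannot be told apart. None of the 4 members named in most detail below (Shld2, Shld1, Xrcc5 and Polb) overlaps another protein-coding gene. Apex1, Lig3, Xrcc6, Xrcc4, Trp53bp1, Mre11a, Ogg1, Lig1, Rnf8 and Xrcc3 do overlap such a gene. The strands of these overlapping genes were not compared, so the limit may apply to the values of these members below.

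The comparisons of ions with control, given below, called 2 members, both of them shieldin genes, at a share near that of all genes. For these genes the 250 bases before the start site are shown, as RefSeq gives them on GRCm38.p6. Each GC box (GGGCGG or its reverse complement CCGCCC, the Sp1 family motif) is in capitals. The Shld2 window is chr14:34310518-34310767 on the minus strand, and the first Shld1 window is chr2:132686681-132686930 on the plus strand.
Shld2: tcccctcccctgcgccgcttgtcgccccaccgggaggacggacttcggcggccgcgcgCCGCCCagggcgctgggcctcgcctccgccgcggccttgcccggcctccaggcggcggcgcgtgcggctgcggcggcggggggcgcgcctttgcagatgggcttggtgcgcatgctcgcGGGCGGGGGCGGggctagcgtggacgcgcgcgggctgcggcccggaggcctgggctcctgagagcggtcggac
Shld1: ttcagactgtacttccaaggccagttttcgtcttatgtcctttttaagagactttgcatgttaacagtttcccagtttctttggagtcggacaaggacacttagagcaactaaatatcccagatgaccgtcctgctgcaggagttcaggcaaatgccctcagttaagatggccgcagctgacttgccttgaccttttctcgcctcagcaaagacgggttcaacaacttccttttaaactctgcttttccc
The windows of these shieldin genes differ in base composition. The Shld2 window holds 41 CpG sites and 3 GC boxes and is 81.2% G and C, and the Shld1 window holds 6 CpG sites and no GC box and is 46% G and C.

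RefSeq windows of 300 bases, 250 before and 50 after the start, matched 29 of the 38 members. On both strands, the GC box was found for 20 of the 29 members (69.0%), against 62.6% of 9852 tested genes and 35.9% of all 27025 windows, counting 1 window a gene. CCAAT was found for 14 members (48.3%), against 39.1% of tested genes and 37.9% of all windows. An E-box (CACGTG) was found for 6 members (20.7% against 10.2% and 7.24%), including Xrcc5, Apex1, Parp1, Parp2 and Lig3. E2F letters, searched as TTTCGCGC, TTTGGCGC or TTTCCCGC, were found for Chek2, Mdc1, Xrcc6, Brca2 and Rad51c in the window of the first listed start (17.2% of members against 3.48% and 1.91%). NRF1 letters, GCGC then any base then TGCGC, were found for 5 members (17.2% against 10.6% and 4.78%), ETS letters CCGGAAGT for 4 (13.8% against 8.42% and 4%) and CRE letters TGACGTCA for 2 (6.90% against 3.12% and 1.88%). No match says only that these letters are not in the window.

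Each ion was compared with the non-irradiated control of the same time, in 15 comparisons that share control mice within a time. The test was limma on the log2 of RPKM plus 0.1 after trimmed-mean scaling of the libraries, with Benjamini-Hochberg adjustment over all genes tested, and a call needed an adjusted p of at most 0.05. Of the 38 members 35 entered at least 1 of these comparisons, and of 508 member tests 2 were called (0.394%), Shld2 lower at 1 month after 56Fe and Shld1 higher at 1 month after 16O. Over all genes 997 of 168502 tests were called, which is 0.592%, so the members' share was near that of all genes. An unadjusted p under 0.05 was reached in 7.28% of member tests and 11.1% of all gene tests. In 462 of the 508 tests (90.9%) the 95% confidence interval lay within a 2-fold change in either direction, with a median SE of 0.182 on the log2 scale.

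**Figure D2:**
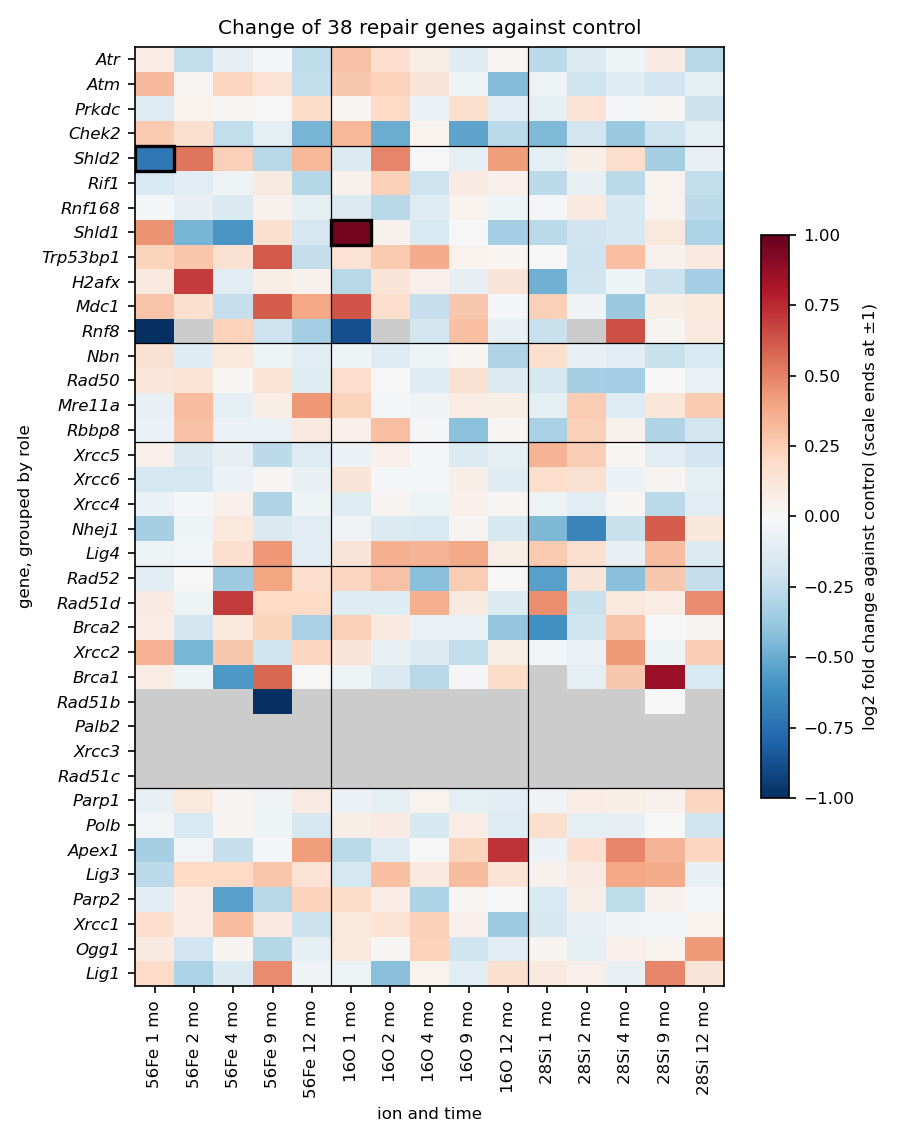
Log2 fold change of each repair gene against the control of the same time, with ions and times along the horizontal axis, genes by role along the vertical axis and the colour scale ending at 1 in either direction. Called tests are marked, and they are Shld2 at 1 month after 56Fe and Shld1 at 1 month after 16O.

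Shld2 (ENSMUSG00000041471, chr14:34237033-34310493, minus strand, GRCm38) encodes the shieldin subunit that binds single-stranded DNA. At 1 month the control libraries held 10.1, 10.5 and 10.7 RPKM and the 56Fe irradiated libraries 6.93, 5.38 and 6.34 RPKM. The groups did not overlap, and all 3 irradiated mice were below all 3 controls. The log2 fold change was -0.72 (SE 0.126, 95% confidence interval -0.99 to -0.44, adjusted p 0.0262 by limma), where 1.18% of all genes tested were called. The reads behind these values were 451, 690 and 459 in control and 336, 215 and 272 after 56Fe. The main transcript, of 3317 bases, held 5.46, 6.16 and 6.46 RPKM in control and 3.66, 2.83 and 3.97 RPKM after 56Fe, so it was lower in each irradiated library as well.

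The Shld2 call held in all 10 alternative settings, with adjusted p of 0.00593 to 0.0486 by limma. It rested on all but 1 of the 6 mice: without control replicate 1 or 2 or without 56Fe replicate 1, 2 or 3 the adjusted p rose above the threshold, up to 0.145, and without control replicate 3 it was 0.0114, while the log2 fold change stayed between -0.80 and -0.65. The 16O irradiated libraries held 7.99, 10.5 and 9.39 RPKM and the 28Si irradiated libraries 12.3, 8.52 and 10.1 RPKM, and both groups overlapped the controls.

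**Figure D3:**
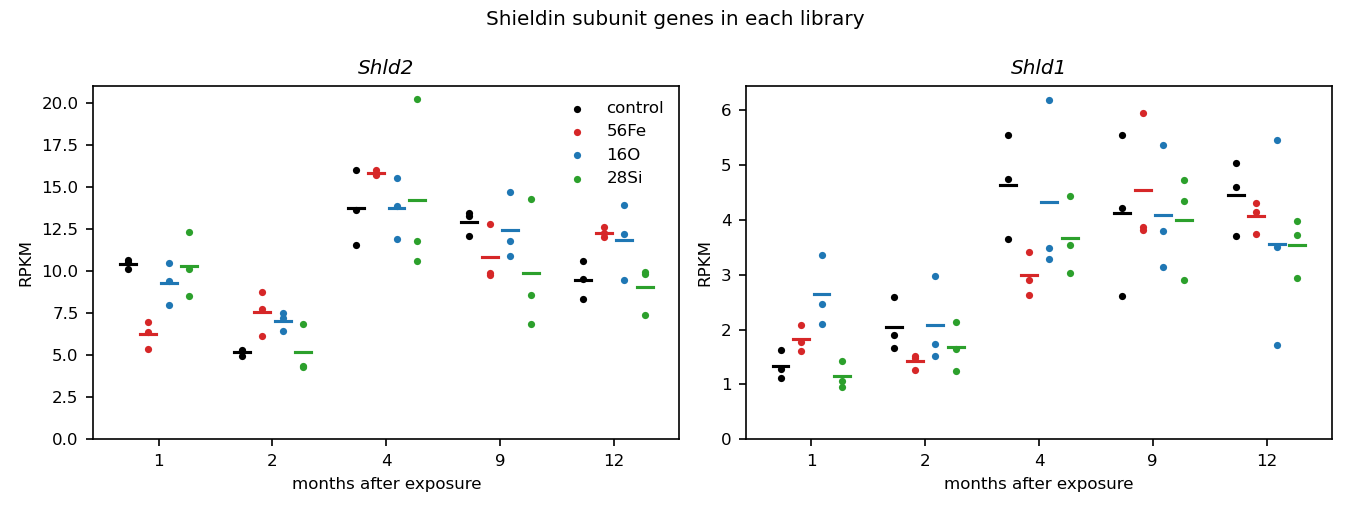
RPKM of Shld2 and Shld1 in each library by months after exposure, with 3 points and a mean bar for control and each ion at each time. At 1 month the 56Fe points of Shld2 lie at 5.38 to 6.93 RPKM, below controls at 10.1 to 10.7 RPKM, and the 16O points of Shld1 lie at 2.10 to 3.36 RPKM, above controls at 1.12 to 1.62 RPKM.

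Whether 56Fe acted on Shld2 differently at 1 month was tested in a fit of all 60 libraries, as the effect at 1 month less the mean effect at the other times. The difference was -0.94 on the log2 scale (SE 0.205, adjusted p 0.0202 by limma), and it was the single member called in the 15 tests of this kind, with 0.487% of all genes called in this one and 0% to 1.71% in the others. Without control replicate 1 or 2 or 56Fe replicate 2 or 3 at 1 month, the adjusted p was 0.0505 to 0.132, and on unscaled RPKM it was 0.0614. At 2 months the direction was the other way, with 5.29, 4.96 and 5.25 RPKM in control and 7.73, 6.15 and 8.75 RPKM after 56Fe, which did not overlap, but the log2 fold change of 0.54 was not called (adjusted p 0.182 by limma, with no gene called in that comparison). After 16O the 2-month values were 7.49, 6.41 and 7.22 RPKM, also all above control, with a log2 fold change of 0.49 and an adjusted p of 0.403 by limma. At 12 months Shld2 held 9.53, 8.31 and 10.6 RPKM in control, 12.0, 12.6 and 12.2 RPKM after 56Fe and 9.44, 12.2 and 13.9 RPKM after 16O, with log2 fold changes of 0.33 and 0.42 and adjusted p of 1.00 and 0.991 by limma.

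Shld1 (ENSMUSG00000044991, chr2:132686931-132751055, plus strand, GRCm38) encodes a small shieldin subunit that joins the complex through Shld2. At 1 month the control libraries held 1.12, 1.28 and 1.62 RPKM and the 16O irradiated libraries 3.36, 2.10 and 2.46 RPKM. All 3 irradiated mice were above all 3 controls. The log2 fold change was 0.95 (SE 0.184, 95% confidence interval 0.55 to 1.36, adjusted p 0.0337 by limma), where 1.6% of all genes tested were called. The depth was small, with 22, 30 and 28 reads in control and 58, 40 and 52 reads after 16O.

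The Shld1 call was lost in 5 of 10 alternative settings (adjusted p 0.0276 to 0.107 over all of them) and without control replicate 1 or 2 or 16O replicate 1, 2 or 3, up to an adjusted p of 0.137, while it was 0.0494 without control replicate 3. After 56Fe the 1-month values were 2.07, 1.61 and 1.78 RPKM, with a log2 fold change of 0.45 and an adjusted p of 0.286 by limma. The 28Si irradiated libraries held 1.42, 0.944 and 1.07 RPKM and overlapped the controls.

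No member was called in the other 13 comparisons of an ion with control by limma, where 30 member tests had an unadjusted p under 0.05, and limma-voom on estimated reads called none there either. The share of all genes called was 0%, 0.541%, 3.65% and 0% at 2, 4, 9 and 12 months after 56Fe, and 0%, 0%, 1.11% and 0.00878% after 16O. After 28Si it was 0.244%, 0.0181%, 0.382%, 0.124% and 0.0176% at 1, 2, 4, 9 and 12 months. The smallest adjusted p was that of Rad51d, which acts in homologous recombination, at 4 months after 56Fe. Its libraries held 2.44, 2.75 and 2.57 RPKM in control and 4.23, 3.92 and 4.39 RPKM after 56Fe. The groups did not overlap, and the log2 fold change was 0.70 with an adjusted p of 0.0648 by limma.

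At 9 months after 56Fe the leading member was Xrcc5, with 11.5, 12.7 and 11.7 RPKM in control and 9.54, 9.70 and 10.8 RPKM after irradiation. The irradiated mice were all below the controls, with a log2 fold change of -0.26 and an adjusted p of 0.143 by limma. Lig3, the ligase that works with Xrcc1, led at 9 months after both other ions, with 5.21, 6.37 and 5.88 RPKM in control, 6.56, 7.10 and 8.58 RPKM after 16O and 6.48, 7.36 and 6.95 RPKM after 28Si. The irradiated libraries were all above the controls, with log2 fold changes of 0.32 and 0.37 and adjusted p of 0.349 and 0.362 by limma. These comparisons use the same 3 control mice.

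The leading member at 4 months after 16O was Rad52, with 3.71, 3.32 and 4.17 RPKM in control and 2.31, 3.47 and 2.68 RPKM after 16O, groups that overlapped (log2 fold change -0.42, adjusted p 0.808 by limma). Rad52 also led at 1 month after 28Si, with 3.47, 4.23 and 4.68 RPKM in control and 2.80, 3.06 and 2.82 RPKM after 28Si, which did not overlap (log2 fold change -0.54, adjusted p 0.234 by limma). At 2 months after 28Si it was Nhej1, the XLF end-joining factor, at 0.904, 1.31 and 1.33 RPKM in control and 0.625, 0.559 and 0.805 RPKM after 28Si (log2 fold change -0.66, adjusted p 0.4998 by limma). At 4 months after 28Si it was Apex1, the Ape1 endonuclease, at 13.3, 9.75 and 12.2 RPKM in control and 16.6, 14.5 and 12.6 RPKM after 28Si, which overlapped (log2 fold change 0.49, adjusted p 0.367 by limma). At 12 months after 28Si it was Ogg1, the 8-oxoguanine glycosylase, at 1.55, 1.598 and 1.59 RPKM in control and 2.01, 2.18 and 2.30 RPKM after 28Si, which did not overlap (log2 fold change 0.43, adjusted p 0.635 by limma).

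The largest fold change of a member was that of Rnf8 at 1 month after 56Fe, with 0.528, 0.947 and 0.656 RPKM in control and 0.373, 0.280 and 0.168 RPKM after irradiation. The groups did not overlap, but the log2 fold change of -1.11 was not called (SE 0.326, adjusted p 0.175 by limma) at a level of 5 to 48 reads a library. Protein-coding transcripts held only 7.05% of the Rnf8 RPKM at 1 and 2 months, and retained-intron transcripts held 44.3%. Averaged over the 3 ions, no member differed from control at any time by limma, with 3, 2, 3, 1 and 0 members at an unadjusted p under 0.05 at 1, 2, 4, 9 and 12 months and none called by limma-voom, where 0.581%, 0%, 0.0344%, 0.527% and 0.00839% of all genes were called.

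Direct comparisons between ions gave member calls at 1 month, each time against 28Si. Between 56Fe and 28Si, where 9.37% of all genes tested were called, 2 of 34 members were called. Shld2 was lower after 56Fe (log2 fold change -0.65, SE 0.134, adjusted p 0.00914 by limma) and Shld1 was higher (0.69, SE 0.164, adjusted p 0.0189 by limma). The 1-month values of both ions are those given above, and neither gene's groups overlapped. Without 56Fe replicate 2 the adjusted p of Shld2 was 0.0570, and that of Shld1 rose to as much as 0.0643 without 56Fe replicate 1 or 3 or 28Si replicate 2. On unscaled RPKM and by limma-voom the Shld1 call was also lost, with adjusted p up to 0.120.

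Between 16O and 28Si at 1 month, where 13.8% of all genes tested were called, 3 of 34 members were called. Shld1 was higher after 16O (log2 fold change 1.21, SE 0.164, adjusted p 4.28e-04 by limma). Rad52 was also higher, with 5.43, 4.13 and 4.49 RPKM after 16O and 2.80, 3.06 and 2.82 RPKM after 28Si, which did not overlap (log2 fold change 0.74, SE 0.138, adjusted p 0.00357 by limma). Both calls held without any 1 of the 6 libraries. Rad51d was lower, with 2.26, 1.71 and 1.47 RPKM after 16O and 3.80, 2.44 and 2.66 RPKM after 28Si (log2 fold change -0.60, SE 0.181, adjusted p 0.0411 by limma). The Rad51d call was lost without 16O replicate 2 or 3 or any 28Si replicate, with adjusted p up to 0.160, and in 4 of 9 alternative settings, up to 0.0958.

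Circadian genes moved in the same 28Si libraries. Of 13 clock markers tested at 1 month, 1 rose and 5 fell after 28Si against control, and the summed level of the 14 markers was 102 to 118 RPKM after 28Si, 175 to 197 RPKM in control, 199 to 256 RPKM after 56Fe and 204 to 235 RPKM after 16O. Their part in the differences from 28Si was not tested. In the other 13 comparisons between ions no member was called by limma, with 34 member tests at an unadjusted p under 0.05. The share of all genes called in them was 0.199%, 0.374%, 0.0688%, 0% and 0% between 56Fe and 16O at 1, 2, 4, 9 and 12 months, 1.17%, 0.981%, 0.264% and 0% between 56Fe and 28Si from 2 months on, and 0.582%, 0.318%, 0.374% and 0% between 16O and 28Si. At 2 months these shares rested on 16O replicate 3: without it 1710 genes in place of 67 were called between 16O and 28Si, 2 members among them, and 1089 in place of 43 between 56Fe and 16O, 1 member among them. The nearest was H2afx, the histone variant phosphorylated at breaks, at 2 months with 2.84, 3.08 and 4.26 RPKM after 56Fe and 1.57, 1.58 and 1.84 RPKM after 28Si (log2 fold change 0.90, adjusted p 0.0523 by limma), which limma-voom called.

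More member calls came with time, in the non-irradiated control as well, than with an ion, in larger groups of libraries. Time cannot be told apart from the age of the mice or from anything else that went with the time of collection. Libraries of 9 and 12 months were compared with those of 1 and 2 months in 1 fit of all 60, averaged over control and the 3 ions. Of 37 members tested, 8 rose and 16 fell, which is 24 called, where 75.8% of all 12731 genes tested were called, 38.5% higher and 37.4% lower. The members' median log2 change was -0.11, against 0.01 over all genes. Of each group alone, 6 rose and 10 fell in control (55.5% of all genes called, 28.7% higher and 26.9% lower), 6 rose and 11 fell after 56Fe (53.2%, 27.3% and 26%), 6 rose and 13 fell after 16O (60.4%, 30.5% and 29.9%) and 5 rose and 7 fell after 28Si (47.6%, 24.8% and 22.8%).

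These directions are relative to the scaling between libraries. On RPKM as deposited, without scaling, the median change of all genes was 0.47, and 24 members rose and 5 fell. The falls of H2afx, Lig4, Mdc1, Ogg1, Rad50, Rbbp8, Xrcc1 and Xrcc2 given below change sign on that scale, and those of Nhej1 (-0.055), Palb2 (-0.017) and Prkdc (-0.030) lose their call, so these are falls relative to the median gene. With protein-coding transcripts alone 10 rose and 17 fell, but the scaling between libraries was then computed again from those sums, so both differ from the main fit. The early and late libraries also differed in the share of reads in transcripts and in retained introns given above, and the part of these shares in the changes with time was not tested. Values below are scaled RPKM, the RPKM divided by the library's trimmed-mean factor, as lowest, median and highest of 24 libraries at 1 and 2 months and of 24 at 9 and 12 months.

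**Figure D4:**
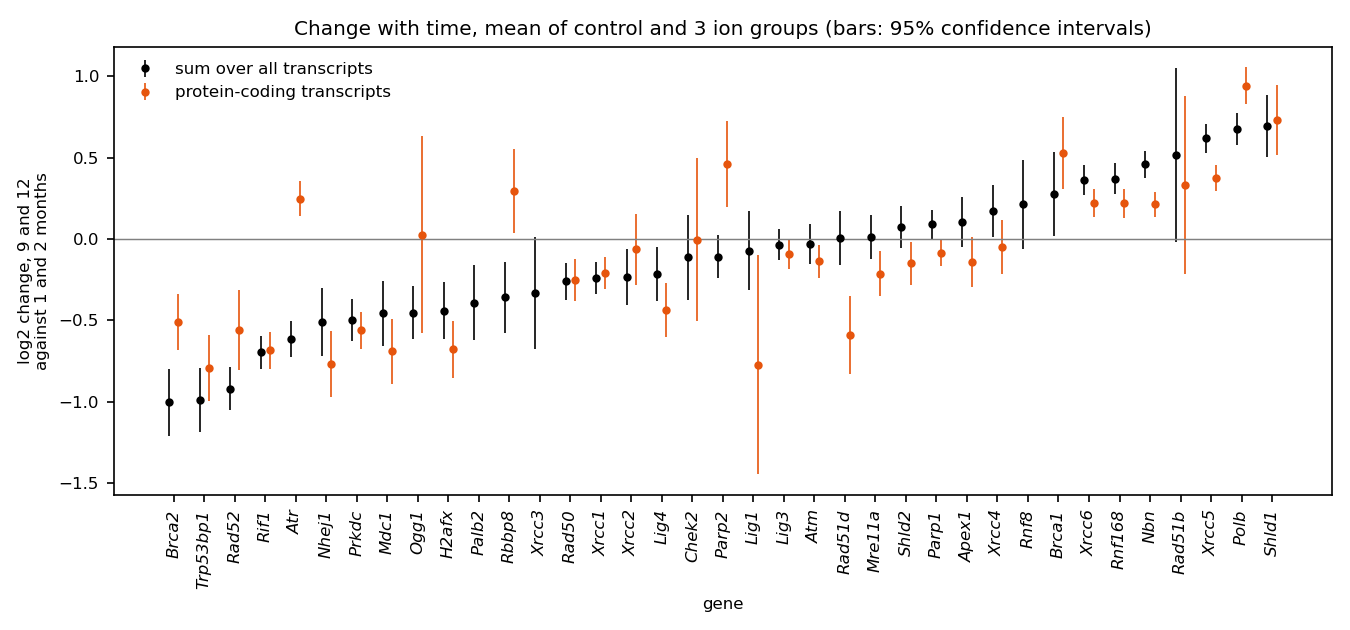
Log2 change from 1 and 2 months to 9 and 12 months for each repair gene, averaged over control and the 3 ions, with 95% confidence intervals, from all transcripts (black) and from protein-coding transcripts alone (orange). Libraries were scaled separately for each of the 2 sums. Brca2, Trp53bp1 and Rad52 lie lowest from all transcripts at -1.003, -0.99 and -0.92, Xrcc5, Polb and Shld1 highest at 0.62, 0.68 and 0.69, and of the called members Atr, Rbbp8, Ogg1 and Xrcc4 lie on opposite sides of 0 by the 2 sums.

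All 5 end-joining genes were called, 3 up and 2 down, where 75.8% of all genes tested were called. Both falls depended on the scaling: on RPKM as deposited Lig4 changed by 0.22 and Nhej1 by -0.055. Xrcc5 (Ku80, chr1:72307421-72394952, plus strand, GRCm38) rose from 4.40, 5.59 and 7.996 to 6.72, 8.55 and 10.8 scaled RPKM (log2 change 0.62, SE 0.0435, adjusted p 3.55e-17 by limma), and 16 of 24 late libraries were above all early ones. Xrcc6, which encodes the Ku70 partner, rose from 3.31, 3.98 and 5.63 to 4.08, 5.16 and 6.15 scaled RPKM (0.36, SE 0.0465, adjusted p 2.18e-09). The genes of both Ku subunits were therefore higher at the late times. Xrcc4, the scaffold of ligase IV, rose slightly (0.17, adjusted p 0.0486) from a median of 3.11 to 3.38 scaled RPKM. Nhej1 fell by 0.51 from a median of 1.501 to 0.947 scaled RPKM, and Lig4 fell by 0.22 from a median of 0.911 to 0.794 scaled RPKM. The Xrcc4 call was lost in 5 of 9 alternative settings and without any 1 of 27 of the 48 libraries, up to adjusted p of 0.173 and 0.106 by limma, and the protein-coding sum gave -0.05 (adjusted p 0.5997). The protein-coding run also scaled the libraries again, from the protein-coding sums. Protein-coding transcripts held 98.0% of the Xrcc4 RPKM early and 99.3% late. For Xrcc5, whose 1 transcript is protein-coding, that run gave 0.37 in place of 0.62, with only the scaling changed.

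The chromatin signalling genes divided, with 2 of 8 rising and 4 falling, where 38.5% of all genes were called higher and 37.4% lower. Shld1 rose from 1.24, 1.92 and 4.10 to 1.77, 3.43 and 4.92 scaled RPKM (log2 change 0.69, SE 0.0946, adjusted p 9.62e-09 by limma). Rnf168, the ubiquitin ligase that marks chromatin for 53BP1, rose from 2.25, 2.90 and 3.66 to 3.07, 3.80 and 4.61 scaled RPKM (0.37, SE 0.0472), and 15 of 24 late libraries were above all early ones. Trp53bp1, which encodes 53BP1 itself, fell from 2.35, 4.01 and 5.84 to 0.876, 1.90 and 3.80 scaled RPKM (-0.99, SE 0.0974), and 19 late libraries were below all early ones. Rif1, its partner in shielding ends, fell from 5.53, 7.29 and 10.1 to 3.48, 4.32 and 5.98 scaled RPKM (-0.70, SE 0.0503), with 22 late libraries below all early ones. Mdc1 fell by 0.46 from a median of 1.72 to 1.36 scaled RPKM, and H2afx fell by 0.44 from a median of 2.59 to 1.98 scaled RPKM. Shld2 (0.07) and Rnf8 (0.21) were not called.

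Among the kinases Atr fell from 4.85, 6.13 and 8.92 to 2.66, 3.98 and 5.77 scaled RPKM (log2 change -0.61, SE 0.0543), with 21 late libraries below all early ones. Its protein-coding share of RPKM went from 31.1% to 68.3%, the remainder being 11 retained-intron transcripts, and the protein-coding sum gave a rise of 0.25 (adjusted p 5.83e-05 by limma). By limma-voom on all transcripts the change was -0.11 (adjusted p 0.0525). The direction for Atr thus depends on which transcripts are counted. Prkdc, the catalytic subunit that Ku recruits, fell by 0.50 from a median of 2.22 to 1.55 scaled RPKM, while Atm (-0.03) and Chek2 (-0.11) were not called.

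Of the resection genes, Nbn rose from 4.53, 5.63 and 6.35 to 5.84, 7.84 and 9.26 scaled RPKM (log2 change 0.46, SE 0.0414, adjusted p 1.22e-13 by limma), and 22 late libraries were above all early ones. Its partner Rad50 fell by 0.26 from a median of 3.57 to 2.97 scaled RPKM, and Mre11a (0.02) was not called. On scaled values the subunits of the Mre11 complex thus did not move one way. On RPKM as deposited, where the median of all genes also rose, Nbn rose by 0.94, Mre11a by 0.48 and Rad50 by 0.22. Rbbp8 fell by 0.36 from a median of 1.86 to 1.28 scaled RPKM, but its protein-coding sum rose by 0.30 (adjusted p 0.0372 by limma).

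Homologous recombination genes had 1 rise and 4 falls among 8 tested, where 75.8% of all genes were called. Brca2, the breast cancer gene that acts in homologous recombination, fell from 1.77, 2.65 and 5.63 to 0.866, 1.43 and 2.52 scaled RPKM (log2 change -1.003, SE 0.102, adjusted p 3.99e-12 by limma), with 18 late libraries below all early ones. Rad52 fell from 2.93, 4.79 and 6.63 to 1.62, 2.47 and 3.57 scaled RPKM (-0.92, SE 0.0662, adjusted p 8.00e-17), with 20 late libraries below all early ones. Retained-intron transcripts held 69.9% of the Brca2 RPKM and 61.7% of the Rad52 RPKM at 1 and 2 months, and the protein-coding sums gave smaller falls, -0.51 and -0.56. Palb2, the bridge between Brca1 and Brca2, fell by 0.39 from a median of 0.351 to 0.252 scaled RPKM, and Xrcc2, which acts with Rad51d, fell by 0.23 from a median of 0.839 to 0.722 scaled RPKM, a call lost by limma-voom and with protein-coding transcripts (adjusted p up to 0.712). Brca1 rose by 0.28 (adjusted p 0.0470) from a median of 0.672 to 0.812 scaled RPKM, a call lost in 4 of 9 alternative settings and without any 1 of 28 of the 48 libraries (adjusted p up to 0.0855 and 0.0950 by limma). Rad51d (0.01), Rad51b (0.52) and Xrcc3 (-0.33) were not called.

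Of the 8 base repair genes tested, 1 rose and 2 fell, where 75.8% of all genes were called. Polb (DNA polymerase beta, chr8:22628126-22653435, minus strand, GRCm38) rose from 5.12, 6.18 and 8.34 to 8.32, 10.04 and 14.1 scaled RPKM (log2 change 0.68, SE 0.0486, adjusted p 7.92e-17 by limma), and 23 of 24 late libraries were above all early ones. Its protein-coding share went from 66.4% to 94.4%, and the protein-coding sum rose by 0.94. By limma-voom on estimated reads of all transcripts the change was 0.077 and was not called (adjusted p 0.172). Ogg1 fell by 0.45 from a median of 2.17 to 1.61 scaled RPKM, while its protein-coding sum changed by 0.03 (adjusted p 0.938). Xrcc1, the scaffold for Polb and Lig3, fell by 0.24 from a median of 4.43 to 3.82 scaled RPKM. Parp1 (0.09), Parp2 (-0.11), Apex1 (0.10), Lig1 (-0.07) and Lig3 (-0.03) were not called.

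**Figure D5:**
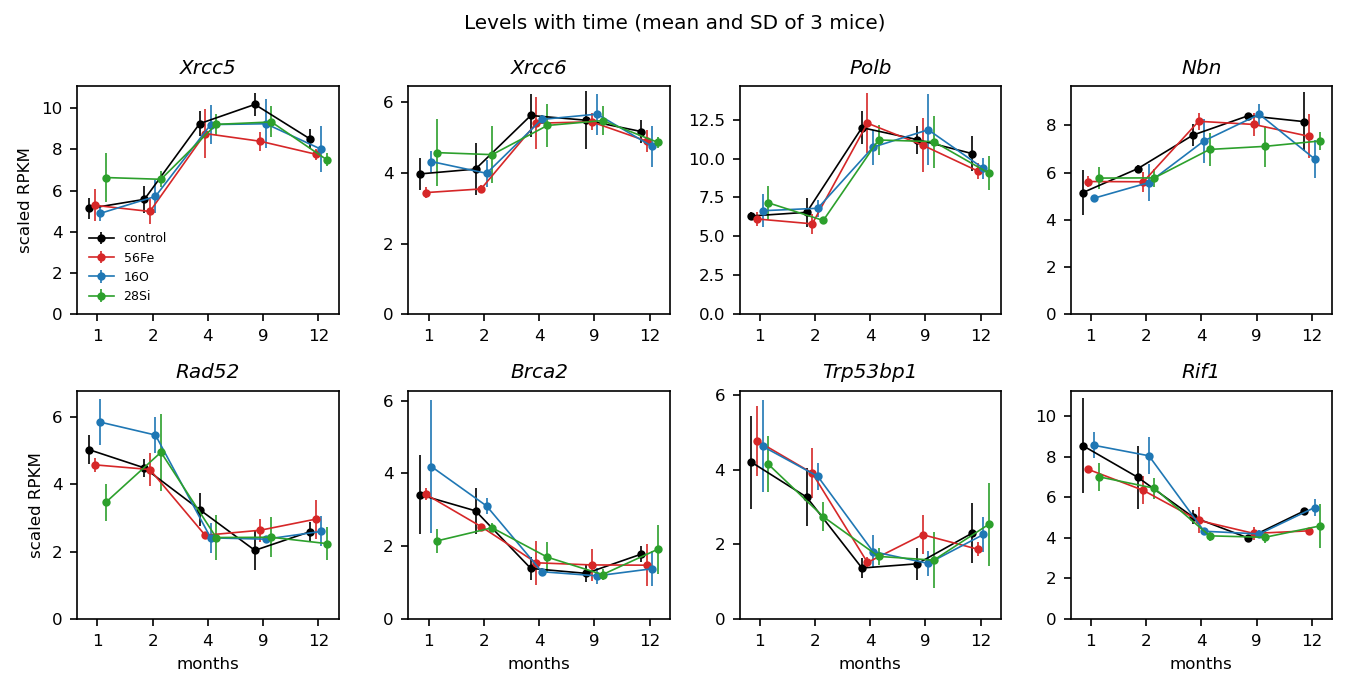
Scaled RPKM (mean and SD of 3 mice) of Xrcc5, Xrcc6, Polb, Nbn, Rad52, Brca2, Trp53bp1 and Rif1 at 1, 2, 4, 9 and 12 months, for control and each ion. The first 4 genes are higher from 4 months on and the last 4 are lower. At 1 month Rad52 differs between ions, with 4.13 to 5.43 RPKM after 16O and 2.80 to 3.06 RPKM after 28Si before scaling.

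Transcript forms moved with the same times, in the members as in all genes. Of 21 members with a retained-intron transcript, 19 had a lower share in it at 9 and 12 months than at 1 and 2 months, as did 6875 of 7218 genes tested that have such a transcript (95.2%). Over the 31 members that have forms other than protein-coding ones, the median share of RPKM in such forms was 33.5% early and 13.1% late.

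Between consecutive times most member calls fell between 2 and 4 months. In control, 7 members rose and 7 fell from 2 to 4 months (38.6% of all genes called, 19.8% higher and 18.8% lower), a count of 14 that was 8 to 11 without any 1 of the 6 libraries, 8 by limma-voom and 9 with no filter. Averaged over the 4 groups, an average chosen after seeing the data, 10 rose and 11 fell (66.7%, 33.6% higher and 33.2% lower), a count of 21 with or without 28Si replicate 2 at 4 months. From 1 to 2 months a single member was called, Shld2, which fell in control from 10.1, 10.5 and 10.7 to 5.29, 4.96 and 5.25 RPKM, with no overlap (log2 change -1.04, SE 0.183, adjusted p 0.00251 by limma, where 0.738% of all genes were called). That call held in all 9 alternative settings and without any 1 of the libraries of either time. Averaged over the 4 groups the change was -0.54 (adjusted p 3.47e-04, where 1.30% of all genes were called). Shld2 then rose to 11.5, 13.6 and 16.0 RPKM in control at 4 months (0.93, adjusted p 7.8e-05).

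From 4 to 9 months Rad52 was called in control, from 3.71, 3.32 and 4.17 to 1.94, 3.16 and 2.09 RPKM (log2 change -0.67, SE 0.187, adjusted p 0.0468 by limma, where 1.97% of all genes were called). Over the 4 groups the member called was Shld2 (-0.38, adjusted p 0.0206, where 1.08% of all genes were called). The Rad52 call was lost in 5 of 9 alternative settings and without any control replicate at 4 months or replicate 1 or 3 at 9 months, up to an adjusted p of 0.287. From 9 to 12 months no member was called in control by limma, with 7 at an unadjusted p under 0.05 and 1 called by limma-voom (4.94% of all genes called), and 5 rose and 5 fell over the 4 groups (21%, with 9.01% higher and 12% lower). The latter were Brca1, Lig1, Trp53bp1, Rif1 and Atr up by 0.57, 0.45, 0.40, 0.25 and 0.24, and Rad51d, Polb, Xrcc5, Parp1 and Xrcc1 down by 0.39, 0.24, 0.22, 0.22 and 0.20 on the log2 scale. Without any 1 of the 24 libraries the count of 10 was 7 to 12. Livers of 12 months were uneven in immune cell markers: the summed level of 8 Kupffer cell markers ran from 61.6 to 355 RPKM within control, 80.7 to 629.7 RPKM after 56Fe, 73.5 to 409 RPKM after 16O and 69.6 to 169 RPKM after 28Si, against 88.8 to 272 RPKM over the groups of 9 months. The sum of 10 lymphocyte markers at 12 months ran from 3.79 to 28.5 RPKM, and that of 20 proliferation markers from 12.7 to 34.9 RPKM. Their part in these changes was not tested.

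Of 59 further break repair genes, 28 base excision genes, 23 nucleotide excision genes, 7 mismatch repair genes and 28 checkpoint and p53 genes, 4 calls were made in 1754 tests over the 15 comparisons with control (0.228%, against 0.592% of all gene tests), each at 9 months and each lower. After 56Fe, where 3.65% of all genes were called, these were Rpa3, a subunit of the single-strand binding protein RPA (-0.62, adjusted p 0.0405 by limma), Rad23b, a partner of the Xpc damage sensor (-0.58, adjusted p 0.0379) and Ccng1, a p53 target (-0.52, adjusted p 0.0340). After 16O, where 1.11% of all genes were called, it was Bbc3, the p53 target Puma (-0.84, adjusted p 0.0400), a call lost without any 1 of its 6 libraries, up to an adjusted p of 0.146. The calls of Ccng1 and Rad23b were each lost without any 1 of 4 libraries and that of Rpa3 without any 1 of 5, up to adjusted p of 0.139, 0.153 and 0.157. Over all genes, the 414 calls at 9 months after 56Fe became 0 without control replicate 2 and 834 without control replicate 3. Of 10 alternative settings, 5 lost the call of Rpa3, 4 that of Rad23b, 3 that of Ccng1 and 2 that of Bbc3.

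With time each of these lists had calls in both directions. From early to late, 16 rose and 19 fell of 42 other break repair genes tested, 10 rose and 9 fell of 24 base excision genes, and 11 rose and 7 fell of 23 nucleotide excision genes. Mismatch repair had 2 rises and 3 falls of 7, and the checkpoint and p53 list 9 rises and 10 falls of 25, against 75.8% of all genes called. Marker genes of cell types moved over the same times. Of the Kupffer cell markers 7 of 8 rose and none fell, 5 of 5 erythroid markers rose, 5 of 8 hepatocyte markers rose and 1 fell, and of sinusoidal endothelium markers 3 rose and 2 fell of 7. Stellate cell markers had 1 rise and 3 falls of 6 tested, cholangiocyte markers 3 falls of 4, lymphocyte markers 1 rise and 1 fall of 4, proliferation markers 5 rises and 5 falls of 18, clock markers 2 rises and 8 falls of 13, and nuclear long RNAs 3 falls of 3. Their part in the changes of the repair genes with time was not tested.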

How the data were processed

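Liver RNA from 60 mice was sequenced after ribosomal RNA removal. Reads were trimmed and mapped in CLC Genomics Workbench against GRCm38 (annotation GRCm38.97) by the authors, who deposited RPKM for 123811 transcripts in each library, so the values are normalized and carry no counts. Low values were whole multiples of a unit step, and the depth was taken from these steps (99.75% to 99.96% of values up to 30 reads came out whole within 0.02 reads). The 20 deposited columns of group means were not used. Gene types and positions came from GENCODE M21.

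RPKM was summed over a gene's transcripts. Within each fit, libraries were scaled by trimmed means (30% of ratios and 5% of levels trimmed), and genes that reached 0.5 RPKM in 3 or more libraries were tested with limma 3.58.1 (R 4.3.3) on log2(RPKM + 0.1), with a trend and Benjamini-Hochberg adjustment over all genes. Fold changes on this scale understate the changes of low genes. Ions were compared with control in fits of 6 libraries, with each other and as their mean in fits of 12, and times and effects by time in fits of 60. The scripts were tested on simulated data. The study's edgeR test on counts was not run because the deposited unit is RPKM. No library pair was identical, and the highest rank correlation between libraries was 0.9901.

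Alternatives were another scaling (relative log expression), unscaled RPKM, pseudocounts of 0.5 and 0.02, no filter, a filter of 1 RPKM, a replicate block, limma-voom on estimated reads, protein-coding transcripts, 1 fit of 60 libraries, and leaving out each library. The members, the lists of other repair genes and the marker lists were chosen with earlier results of these data known. Named with their values were the members called in a comparison, the highest and lowest member of each role, and the member with the smallest p where none was called. Values are given for each of the 3 libraries of a group and, over more libraries, as lowest, median and highest or as the median, and other repair genes are named where called against control. Rnf8 at 1 month and H2afx at 2 months were named after their values were seen.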

Additional observations from a re-analysis of the deposited data

Results flagged for a closer look

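Shld2 was flagged because the 56Fe effect differed between times. The effect at 1 month less its mean at 2, 4, 9 and 12 months was -0.94 on the log2 scale (SE 0.205, adjusted p 0.0202 by limma with Benjamini-Hochberg adjustment), and on unscaled RPKM the adjusted p was 0.0614. All 3 irradiated mice were below all 3 controls at 1 month and all 3 were above them at 2 months. Control Shld2 itself fell between these times, from a mean of 10.4 to 5.17 RPKM, and the 56Fe irradiated means were 6.22 and 7.54 RPKM.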

How the results depend on the processing

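On RPKM as deposited, members called were 0 for 16O against control at 1 month, 1 for 56Fe against 28Si at 1 month, 21 for late against early after 28Si, 0 for control from 4 to 9 months, 0 for the 56Fe effect at 1 month against its mean at other times (Shld2 -0.96, adjusted p 0.0614 by limma), and, over the 4 groups, 0 from 4 to 9 and 6 from 9 to 12 months. 16O against control at 1 month also had 0 with no filter, limma-voom, protein-coding transcripts or 1 fit of 60 libraries, and control from 4 to 9 months 0 with a pseudocount of 0.5, no filter, limma-voom or protein-coding transcripts. 56Fe against 28Si at 2 months had 1 with a pseudocount of 0.5, a filter of 1 RPKM, the replicate block, limma-voom or protein-coding transcripts. Control from 2 to 4 months had 9 with no filter and 8 by limma-voom, control from 9 to 12 months 1 and 16O against 28Si at 1 month 6 by limma-voom, and the 4 groups from 9 to 12 months 5 with protein-coding transcripts.

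Unscaled, 8 late falls turned to rises: H2afx 0.033, Lig4 0.22, Mdc1 0.0082, Ogg1 0.015, Rad50 0.22, Rbbp8 0.10, Xrcc1 0.24 and Xrcc2 0.20, as did Rad50 (0.030) and Rif1 (0.0063) in control from 2 to 4 months. With protein-coding transcripts, scaled again from their own sums, late changes were Atr 0.25, Ogg1 0.028, Rbbp8 0.30 and Xrcc4 -0.049. Control changes from 2 to 4 months were Atr 0.54 and Ogg1 0.84 with these transcripts, and Atr was 0.10 by limma-voom. Scaling removes the common shift by construction; other causes were not tested.

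Leaving out 1 library gave 0 to 1 members for 56Fe and for 16O against control at 1 month, 1 to 2 for 56Fe against 28Si at 1 month, 2 to 5 for 16O against 28Si at 1 month, 0 to 1 for 56Fe against 16O at 2 months and against 28Si at 4 months, and 0 to 2 for 16O against 28Si at 2 months. For the effect at 1 month against other times it gave 0 to 1 for each ion, and 0 to 3 for 16O at 12 months. Control gave 1 to 2, 8 to 11, 0 to 1 and 0 to 1 over its consecutive steps, and the 4 groups 1 to 2 from 1 to 2 months and 0 to 1 from 4 to 9 months.

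Libraries of a same replicate number were mostly not alike: all 3 correlations were above 0.1 for 1 of 15 ion and time combinations. That was 16O at 12 months, with 0.348, 0.474 and 0.249. With 3 mice a group this rule cannot exclude that some mice were paired or handled together. Under the replicate block the late comparison called 23 members, Shld2 after 56Fe at 1 month had an adjusted p of 0.0398 and Shld1 after 16O 0.0276 by limma, and the Rad51d call between 16O and 28Si was lost (adjusted p 0.0514). Of the other settings, 409 counts of members were equal or within 1.5 times and 25 moved, and 379 gene changes kept their call, 68 lost it and 17 reversed. The 409 include every count that was 0 in both fits, so they do not measure how firm the calls are. Members below 1 RPKM rest on few reads a library, which limits them most.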

Other observations

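Within groups, 10 pairs of genes were compared over the 60 libraries by their deviations from group means on the log2 scale, with permutation tests adjusted over the 10 relations. Lig1 and Mki67, a marker of dividing cells, were the pair that passed (Pearson's r = 0.392, adjusted permutation p = 0.0239; Spearman's rho = 0.449, adjusted permutation p = 0.0136), with r = 0.415 without the 2 most distant libraries, 0.42 within 1 and 2 months and 0.39 within 4 to 12 months. Both genes were low, with a median of 0.672 RPKM for Lig1 and 0.285 RPKM for Mki67. The partners of the Ku heterodimer, Xrcc5 and Xrcc6, had r = 0.322 and rho = 0.30 (adjusted permutation p = 0.167 and 0.203), with r = 0.503 within 1 and 2 months and 0.109 later. The shieldin genes Shld1 and Shld2 had r = -0.12 and rho = -0.11 (adjusted permutation p = 0.739 and 0.718), and Shld2 with its head-to-head neighbour Glud1 had r = 0.279 and rho = 0.279 (adjusted permutation p = 0.228 and 0.203). The other 6 pairs, Mre11a with Rad50, Rad50 with Nbn, Brca1 with Brca2, Brca1 with Mki67, Prkdc with Mcm4 and Atm with Npat, did not pass either, with adjusted permutation p of 0.167 to 0.902 over both measures.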
